A study of Danio rerio with 6 samples.

Results

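The transcription factor genes *egr2a*, *egr2b*, *mafba*, *hnf1ba*, *cdx1a* and *cdx4* were examined as regulators of hindbrain segmentation and of the border between hindbrain and spinal cord. They were chosen by name, with earlier results of these data known. In the deposited table of detected genes, 6 of 6 were found among 23150 genes. Of these, 6 of 6 passed the filter on low counts that left 20021 genes for testing. RNA had been sequenced from pools of dechorionated and deyolked whole zebrafish embryos at 18 hpf (hours post fertilization), in 3 wildtype (*dusp2*+/+;*dusp6*+/+) and 3 *dusp2/dusp6* double mutant (*dusp2*um287/um287;*dusp6*um286/um286) libraries. Embryos of both groups were kept in egg water, and no other treatment is named. The *um286* allele is a deletion within *dusp6* and the *um287* allele a deletion within *dusp2*, and the double mutant embryos came from parents that were themselves homozygous for both deletions, so that maternal as well as zygotic copies were mutated. Wildtype embryos cannot have come from such parents, so parents and clutches differed along with the genotype and cannot be told apart from it. The paper reports that a large part of the embryos of double mutant parents die before the end of gastrulation. The mutant pools at 18 hpf were thus of surviving embryos, and this selection cannot be told apart from the genotype either. The labels do not say how closely the wildtype and mutant lines were related, or whether each library came from its own pool. The p-values thus set the difference between genotypes against the spread between these libraries, which may be technical.

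The hindbrain is laid out as a row of segments, the rhombomeres, and each is specified by a combination of transcription factors. Egr2b, the zinc finger protein Krox20, patterns rhombomeres r3 and r5. Mafba, the bZIP protein Valentino (Kreisler in the mouse), patterns r5 and r6, and Hnf1ba, a homeodomain protein of the caudal hindbrain that also acts in the pronephros and the endoderm, works with Fgf signals from r4 to turn on *valentino*. Cdx1a and Cdx4 are caudal-type homeodomain proteins of the tail bud and the spinal cord, which keep hindbrain fates out of the cord. Fgf signals act in part through the kinase ERK, and Dusp6 and Dusp2 are phosphatases that remove phosphate from ERK.

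The deposited expected counts sum to between 36310355 and 45161306 per library. In these, *dusp6* had between 212 and 229 CPM (counts scaled to a common library total by edgeR's TMM method) in wildtype and between 28.5 and 32.4 CPM in the mutants, and *dusp2* had 35 to 71 counts in wildtype and 3 to 7 counts in the mutants, in the direction of the labels. Mutant library D stood apart from the other mutants: the chi-square per degree of freedom over genes was 15.5 and 12.7 for its pairs with mutant libraries A and C, against 3.62 at the lowest among pairs of the same genotype and 25.4 at the lowest between genotypes.

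Among the 6 genes, *egr2b*, *cdx4* and *cdx1a* were higher and *egr2a* was lower in the double mutants with adjusted p-values below 0.05 in edgeR's quasi-likelihood test (Benjamini-Hochberg adjustment over all 20021 genes), while *mafba* and *hnf1ba* did not pass. That is 4 of 6, against 34.5% of all genes tested, and 3 higher and 1 lower, against 17.4% and 17.1%. No change reached 2-fold with all 6 libraries, although *cdx1a* did without wildtype library B (log2 fold change 1.14), against 4.95% of all genes that passed both the p and a 2-fold change. The ranges of the 2 genotypes did not overlap for 4 of the 6, against 49.1% of all genes. Each change is thus to be read in a data set in which about as many genes rose as fell, with a median log2 fold change over all genes of -0.00065. Because whole embryos were sequenced, fewer cells that transcribe a gene and less RNA of it per cell cannot be told apart.

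**Figure D1:**
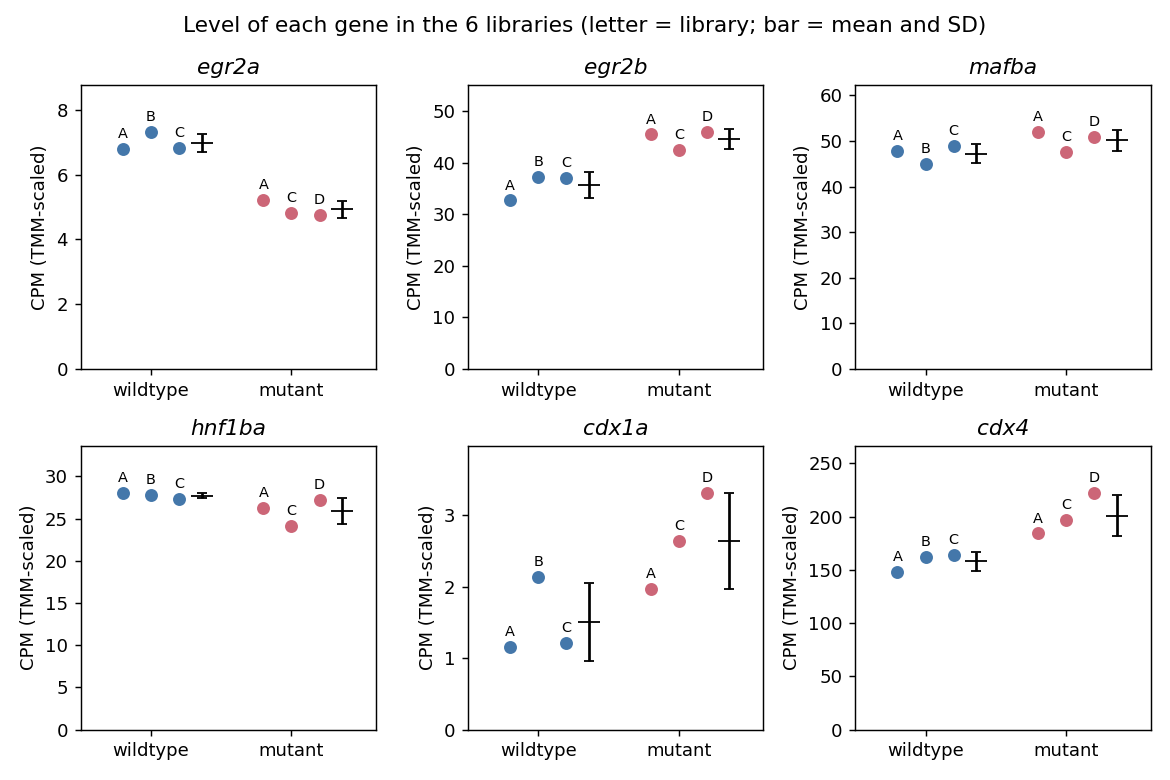
Level of each of the 6 genes in CPM after TMM scaling (vertical axis, starting at 0) in the wildtype and mutant libraries, each point a library marked with its letter and each bar the mean and SD of 3. The mutant libraries lie below every wildtype library for *egr2a*, from 4.75 to 5.22 CPM against 6.79 to 7.31 CPM, and above every wildtype library for *egr2b* and *cdx4*, whereas the ranges of *mafba* and *cdx1a* overlap.

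The paralogous Krox20 genes moved in opposite directions. *egr2b*, the gene of r3 and r5, had 32.7, 37.2 and 37.0 CPM in wildtype libraries A, B and C, and 45.5, 42.5 and 45.9 CPM in mutant libraries A, C and D. All mutant libraries were above the highest wildtype library, and wildtype library A was the lowest. Group means were 35.6 ± 2.54 and 44.6 ± 1.88 CPM (mean ± SD of 3 libraries). The log2 fold change was 0.32 (SE 0.0622, 95% interval 0.19 to 0.46, adjusted p = 0.00233 by edgeR's quasi-likelihood test). This is a rise of 25.1%, with an interval from 13.9% to 37.6%, and 34.1% of all genes tested changed by more in either direction. By in situ hybridization, the paper detected no change of *krox20*, *fgf3* or *fgf8* in double mutants. That assay shows staining in the embryo and is unlike a count of RNA over whole embryos. The variance of the counts among libraries was 5.72 times what counting alone gives in wildtype and 4.03 times in the mutants, so the spread among these libraries exceeded counting error.

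*egr2a*, the second zebrafish copy of the gene, had 6.79, 7.31 and 6.83 CPM in the wildtype libraries and 5.22, 4.81 and 4.75 CPM in the mutant libraries. The groups were separated by a gap, and the libraries within each lay close together. The wildtype mean was 6.98 ± 0.291 CPM and the mutant mean 4.93 ± 0.256 CPM (± SD, 3 libraries per genotype), and the log2 fold change was -0.50 (SE 0.099, 95% interval -0.72 to -0.28, adjusted p = 0.00278, edgeR's quasi-likelihood test). The mutant level was 0.707 times that of wildtype, and 19.6% of all genes tested changed by more. The gene rested on 253, 274 and 314 counts in wildtype and 218, 210 and 178 in the mutants, and its variance among libraries was 0.335 and 0.546 times the counting variance, that is no wider than counting error. The change was of this direction and passed the threshold in each of 12 alternatives, with log2 fold changes from -0.54 to -0.47.

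Because both genes were counted in the same libraries, their ratio is free of the scaling between libraries. The *egr2a* count was 20.8%, 19.7% and 18.5% of the *egr2b* count in the wildtype libraries and 11.5%, 11.3% and 10.3% in the mutant libraries. Transcript length enters this percentage equally in every library, so it is compared between libraries and is no statement on which gene is more transcribed. Every mutant ratio was below every wildtype ratio, and the mean log2 ratio differed by -0.83, a ratio 0.564 times that of wildtype. With 3 libraries against 3, the two-sided exact permutation test cannot go below 0.1, and it gave p = 0.1 (0.133 adjusted over the 4 ratios tested). RSEM divides reads that fit more than 1 transcript, and the *egr2a* count was whole in every library but wildtype B (274.15) and mutant A (217.87).

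*mafba*, the factor of r5 and r6, had 47.8, 44.9 and 48.9 CPM in the wildtype libraries and 51.9, 47.6 and 50.8 CPM in the mutant libraries. The groups overlapped, with mutant library C below wildtype libraries A and C. The means were 47.2 ± 2.04 and 50.1 ± 2.25 CPM (± SD, 3 libraries per genotype), and the log2 fold change was 0.09 (SE 0.054, adjusted p = 0.244, edgeR's quasi-likelihood test). The 95% interval ran from -2.24% to 15.2%. The rise estimated for *egr2b*, 25.1%, lies outside it, but the interval of that estimate, from 13.9% to 37.6%, overlaps it. Within libraries, the *mafba* count was 146%, 121% and 132% of the *egr2b* count in wildtype and 114%, 112% and 111% in the mutants. The mutant ratios were all lower and close to each other, with a log2 difference of -0.24 (two-sided exact permutation p = 0.1, 0.133 adjusted over 4 ratios).

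*hnf1ba*, which lies upstream of *mafba* in the caudal hindbrain, had 28.0, 27.8 and 27.4 CPM in the wildtype libraries and 26.3, 24.2 and 27.3 CPM in the mutant libraries. The mutants were all below the wildtype range, but mutant library D was close to wildtype library C. Means were 27.7 ± 0.334 and 25.9 ± 1.59 CPM (± SD, 3 libraries per genotype), and the log2 fold change was -0.10 (SE 0.061, 95% interval -0.23 to 0.04, adjusted p = 0.236, edgeR's quasi-likelihood test). Among wildtype libraries the variance was 0.321 times the counting variance, and among mutants it was 4.63 times. The *hnf1ba* count was 58.7%, 61.8% and 56.0% of the *mafba* count in wildtype and 50.7%, 50.7% and 53.7% in the mutants, lower in every mutant library, with a log2 difference of -0.19 (two-sided exact permutation p = 0.1, 0.133 adjusted). Neither gene passed by itself in any of 12 alternatives, where the adjusted p was between 0.153 and 0.567 for *mafba* and between 0.0950 and 0.604 for *hnf1ba*.

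**Figure D2:**
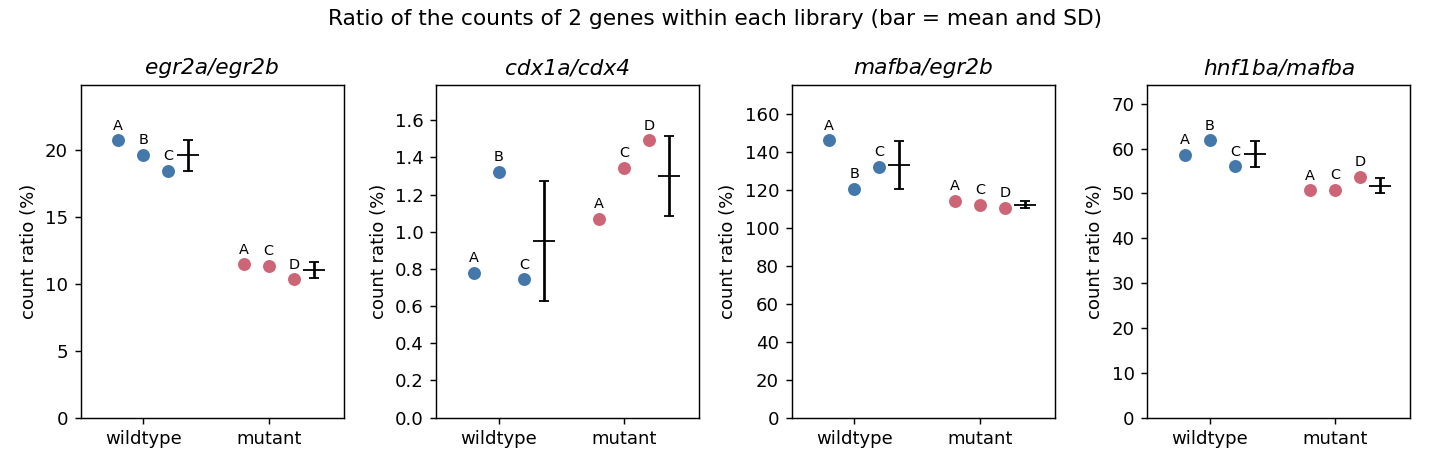
Ratio of the counts of 2 genes within each library, in percent (vertical axis), for the 4 pairs tested, with a point for each library and bars for the mean and SD of 3. The *egr2a* to *egr2b* ratio lies between 18.5% and 20.8% in wildtype and between 10.3% and 11.5% in the mutants, and the *cdx1a* to *cdx4* ratio is the only one of the 4 in which the genotypes overlap.

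*cdx4*, the gene of the *kugelig* mutant, with roles in the posterior body axis and in blood formation, had 148, 162 and 164 CPM in the wildtype libraries and 184, 197 and 222 CPM in the mutant libraries. All mutant libraries were above the wildtype range, and mutant library D was the highest. The wildtype mean was 158 ± 8.73 CPM and the mutant mean 201 ± 19.4 CPM (± SD, 3 libraries per genotype), a difference of 0.35 on the log2 scale (SE 0.0667, 95% interval 0.20 to 0.49, adjusted p = 0.00231, edgeR's quasi-likelihood test). This is a rise of 27.2%, with an interval from 15.0% to 40.8%. The 3 mutant libraries differed from each other by more than for any other of the 6 genes relative to counting, with a variance 78.0 times the counting variance, against 15.1 times in wildtype. This measure grows with the number of counts. As a percent of the mean, the SD of the mutant libraries was 9.64% for *cdx4* and 25.5% for *cdx1a*. The call did not rest on mutant library D alone: over 12 alternatives, that one included, the log2 fold change was between 0.26 and 0.41 and the adjusted p at most 0.0177.

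*cdx1a*, a further caudal-type gene, was the least counted of the 6. It had 43, 80 and 56 counts in the wildtype libraries and 82, 115 and 124 counts in the mutant libraries, which are 1.15, 2.14 and 1.22 CPM against 1.97, 2.64 and 3.31 CPM. The groups overlapped, since wildtype library B was above mutant library A. The means were 1.50 ± 0.549 and 2.64 ± 0.673 CPM (± SD, 3 libraries per genotype), and the log2 fold change was 0.81 (SE 0.262, 95% interval 0.24 to 1.39, adjusted p = 0.0322, edgeR's quasi-likelihood test). The estimate, a rise of 75.9%, was larger than for the other members and its interval wider, from 18.1% to 162%. The call was lost on leaving out wildtype library A (log2 fold change 0.66, adjusted p = 0.125), wildtype library C (0.67, 0.126), mutant library C (0.81, 0.0742) or mutant library D (0.62, 0.0724), all by edgeR's quasi-likelihood test. It was kept, with larger estimates, without wildtype library B (1.14, adjusted p = 0.00986) or mutant library A (0.99, adjusted p = 0.0157) in the same test. The *cdx1a* count was 0.780%, 1.32% and 0.743% of the *cdx4* count in wildtype and 1.07%, 1.34% and 1.49% in the mutants, ranges that overlap (two-sided exact permutation p = 0.2, 0.2 adjusted over 4 ratios).

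**Figure D3:**
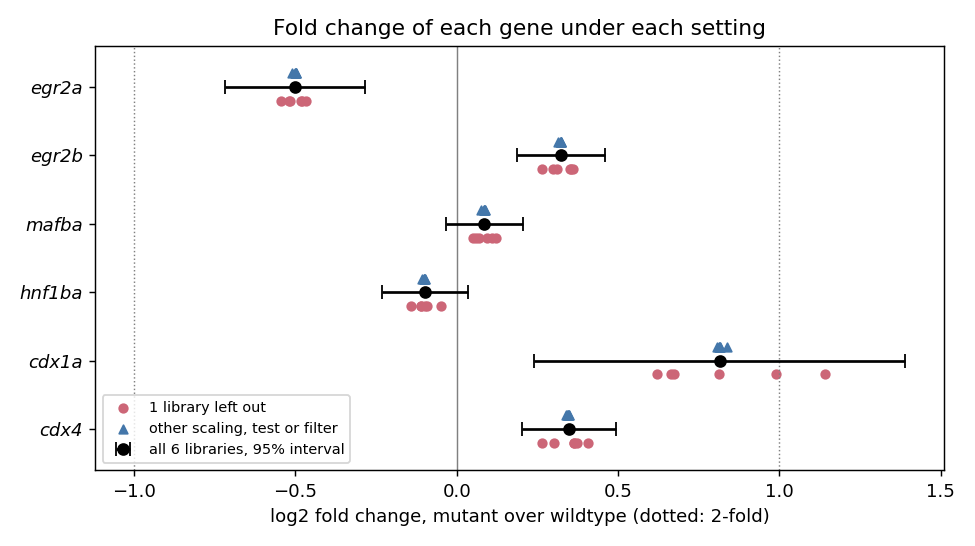
Log2 fold change, mutant over wildtype (horizontal axis), of each gene, with the 95% interval of edgeR's quasi-likelihood fit with circles for fits without 1 library, triangles for another scaling, test or filter, and dotted lines at 2-fold. The intervals of *mafba* and *hnf1ba* cross 0, that of *cdx1a* is the widest, from 0.24 to 1.39, and no alternative turned a direction.

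Relative to the wildtype mean, the 3 mutant libraries stood at 128%, 119% and 129% for *egr2b*, 74.9%, 69.0% and 68.1% for *egr2a*, and 117%, 124% and 141% for *cdx4*, in the order A, C and D. For *mafba* they stood at 110%, 101% and 108%, and for *hnf1ba* at 94.9%, 87.1% and 98.3%. Mutant library C was thus the lowest of the mutants for *egr2b*, *mafba* and *hnf1ba*. Mutant library D was the highest for *egr2b*, *hnf1ba*, *cdx1a* and *cdx4* and the lowest for *egr2a*. For *cdx1a* the values were 131%, 175% and 220%.

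**Figure D4:**
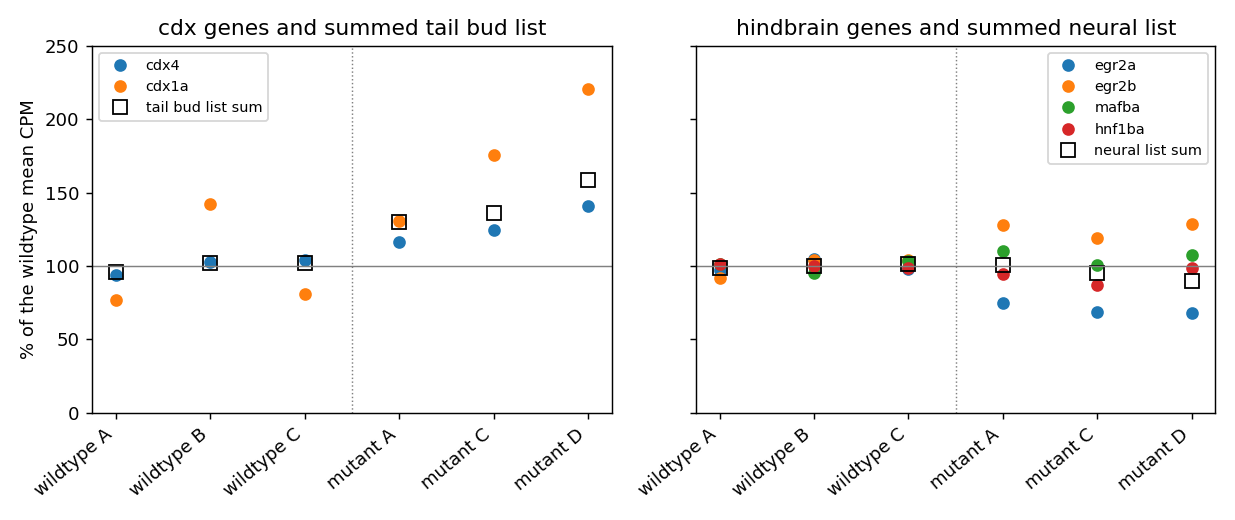
Level in each library as a percent of the wildtype mean CPM (vertical axis), for the *cdx* genes with the summed tail bud list (left) and the hindbrain genes with the summed neural list (right), list sums drawn as squares and the dotted line between wildtype and mutant libraries. The hindbrain genes are spread between 68.1% and 129% in the mutants, and *cdx4* and *cdx1a* are above 100% in every mutant library.

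Close relatives and partners of the 6 genes were then compared. Of 15 genes listed, 11 were tested, and 0 rose while 4 fell, where 34.5% of all genes were called in either direction and 17.1% were lower. The counts of the other lists are to be read against these shares and the 17.4% of all genes that were higher. All lists were written with earlier results of these data known, so a count above these shares is a description and no test. Of the fallen genes, 3 are paralogues: *mafbb*, the second *mafb* gene, fell from 47.1 ± 3.10 to 30.9 ± 6.17 CPM (log2 fold change -0.61, adjusted p = 0.00225), *egr1* from 34.8 ± 2.93 to 21.3 ± 3.09 CPM (-0.71, adjusted p = 0.00029) and *egr3* from 0.775 ± 0.114 to 0.155 ± 0.00956 CPM (-2.30, adjusted p = 0.000433), where ± is the SD of 3 libraries and p is from edgeR's quasi-likelihood test. The change of *egr3* rested on only 6 to 38 counts per library. *egr1* and *egr3* are immediate early genes that growth factor signalling switches on through ERK. The fourth was *pcbd1*, a dimerization cofactor of HNF1 proteins in mammals (-0.36, adjusted p = 0.00283, edgeR's quasi-likelihood test). *hnf1bb*, the paralogue of *hnf1ba*, had a log2 fold change of 0.03 and did not pass, and *cdx1b* had 2 to 7 counts per library and was left out by the filter. The median log2 fold change of the 11 genes was -0.06.

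Of the hindbrain *hox* genes and their TALE cofactors, 19 of 20 were tested, with 1 higher and 3 lower, a smaller share than among all genes, and a median log2 fold change of -0.04. *hoxb1b*, an early regulator of r4, rose from 68.2 ± 4.54 to 84.9 ± 6.44 CPM (log2 fold change 0.31, adjusted p = 0.0034, edgeR's quasi-likelihood test). This level is of the whole embryo, and the tissue in which it rose was not tested. The TALE cofactor genes *meis2a* (-0.40, adjusted p = 0.00184) and *meis3* (-0.28, adjusted p = 0.000447) were lower, as was *meis1a*, listed as *meis4_1a* (-0.17, adjusted p = 0.0241), by edgeR's quasi-likelihood test, and the call of *meis1a* was lost without wildtype library B (adjusted p = 0.0645) or C (adjusted p = 0.0861). The segmental genes *hoxb1a* of r4, *hoxa2b* and *hoxb2a* of the more anterior rhombomeres, and *hoxb3a* of the caudal hindbrain had log2 fold changes of 0.06, 0.02, -0.04 and 0.06 and did not pass.

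Genes that mark regions along the hindbrain and at its front border gave 4 higher and 4 lower of 13 tested, with a median log2 fold change of 0.03. The log2 fold change was 0.55 for *irx1b*, a homeobox gene of the anterior hindbrain, and 0.53 for *sp5l*, while *eng2b* and *eng2a*, the engrailed genes of the midbrain-hindbrain border, had -0.49 and -0.40. Of the genes of signals to the hindbrain, 3 were higher and 3 lower of 12 tested, with a median of 0.17. *aldh1a2*, the enzyme that makes retinoic acid in the somites, fell from 72.9 ± 2.21 to 39.1 ± 6.78 CPM (log2 fold change -0.90, adjusted p = 6.15e-05) and *fgf8a* rose from 27.4 ± 0.351 to 37.6 ± 1.61 CPM (0.46, adjusted p = 0.000109, edgeR's quasi-likelihood test). *fgf3*, the other Fgf ligand of r4, had a log2 fold change of 0.20 and an adjusted p of 0.0925 in the same test. Whole embryos were sequenced, so these values do not place the changes of *sp5l*, *fgf8a* or the other listed genes in the hindbrain. Among 14 genes of rhombomere boundaries, 3 were higher and 3 lower, with a median of -0.10. *epha4a*, an Eph receptor of r3 and r5 that Krox20 activates in the mouse, rose from 164 ± 3.34 to 188 ± 4.32 CPM (log2 fold change 0.19, adjusted p = 0.00401), and *efnb3b* fell (-0.27, adjusted p = 0.00981, edgeR's quasi-likelihood test). The related *epha4b* and *epha4l* had log2 fold changes of -0.10 and -0.11 and did not pass, nor did *hoxa2b* and *hoxb2a*, which Krox20 also activates in the mouse.

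Genes of hindbrain neurons gave 4 higher and 0 lower of 13 tested, with a median of 0.12. The 4 called of 13 are near the 34.5% called in either direction among all genes, of which 17.4% were higher and 17.1% lower. The 4 called genes were *gata2a* (log2 fold change 0.80), *gata3* (0.54), *neurog1* (0.42) and *isl1* (0.21), of which both *gata* genes also act outside the hindbrain. The branchiomotor neuron genes *phox2a* and *phox2bb* had negative values that did not pass, with log2 fold changes of -0.30 (adjusted p = 0.127) and -0.23 (adjusted p = 0.0535, edgeR's quasi-likelihood test). The pronephros and endoderm genes, tissues in which *hnf1ba* is also transcribed, gave 4 higher and 3 lower of 16 tested, with a median of -0.03. *lhx1a* was higher (log2 fold change 0.71) and the pronephric cadherin gene *cdh17* lower (-0.51, adjusted p = 0.000778, edgeR's quasi-likelihood test).

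Genes of the posterior body, where *cdx4* acts, were compared as tail bud genes and as posterior *hox* genes. Of 16 tail bud genes tested, 11 were higher and 0 lower, with a median log2 fold change of 0.49, and their summed level was 750 to 798 CPM in wildtype and 1016 to 1242 CPM in the mutants. The changes were led by *wnt8a* (log2 fold change 0.86), *her7* (0.76), *wnt5b* (0.72) and *ntlb*, now *tbxtb* (0.66). Without mutant library D, 1 tail bud gene was lower. Of 21 posterior *hox* genes, which Cdx proteins activate, 5 were higher and 0 lower, with a median of 0.06, among them *hoxc8a* (0.36) and *hoxb5b* (0.27). The 5 called are a smaller share than the 34.5% of all genes called in either direction. All 5 were higher, where 17.4% of all genes were higher and 17.1% lower. The *cdx4* level was 19.7% to 20.5% of the tail bud sum in wildtype and 17.9% to 18.5% in the mutants, so *cdx4* rose with these genes and by less than their sum, with a log2 difference of -0.15 (two-sided exact permutation p = 0.1). *sall4* holds much of that sum, with 317 to 328 CPM in wildtype and 480 to 533 CPM in the mutants, and over the sum without it the difference of *cdx4* was -0.04 (two-sided exact permutation p = 0.7). The corresponding difference of *cdx1a* over the whole list was 0.34 (two-sided exact permutation p = 0.4). These levels over list sums were added after the data were seen, and their p-values were not adjusted.

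**Figure D5:**
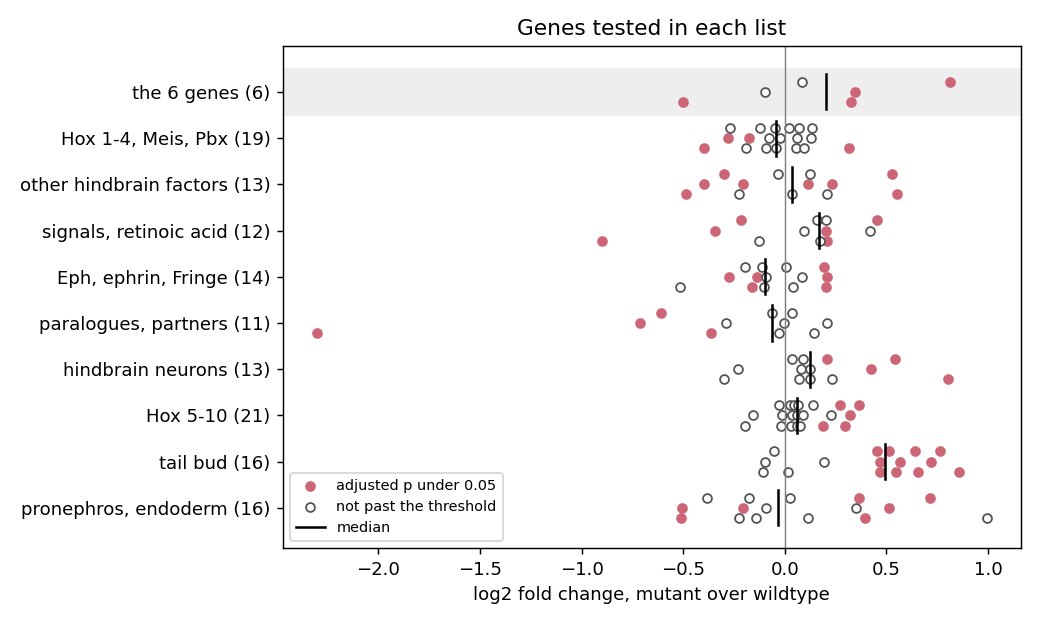
Log2 fold change, mutant over wildtype (horizontal axis), of each gene tested in each list, with filled points for an adjusted p under 0.05, open points for the rest, a bar for the median of each list and the 6 genes in the shaded row. The tail bud genes lie mostly to the right, with a median of 0.49, while the lists of hindbrain *hox* and regional genes have medians of -0.04 and 0.03.

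Markers of other tissues and of developmental stage moved with the genotype as well, and their part in the changes of the 6 genes was not tested. Neural genes common to the whole nervous system gave 0 higher and 2 lower of 7 tested, and 1 higher without mutant library D, with sums of 1209 to 1239 CPM in wildtype and 1100 to 1230 CPM in the mutants. Levels over that neural sum were compared after the data were seen, without adjustment of p. The log2 difference was 0.40 for *egr2b*, -0.43 for *egr2a* and 0.16 for *mafba* (two-sided exact permutation p = 0.1 each). For *hnf1ba* it was -0.03 (p = 0.9 in the same exact permutation test). Epidermal genes were higher in 4 of 6 and lower in 0, from sums of 15470 to 16384 CPM in wildtype to 22749 to 27917 CPM, and without mutant library D 1 was lower. All 6 blood genes were higher, with sums of 176 to 182 CPM in wildtype and 235 to 274 CPM in the mutants. Muscle genes gave 1 higher and 3 lower of 7, with sums of 1247 to 1343 CPM in wildtype and 615 to 1112 CPM in the mutants, where mutant libraries A, C and D stood at 84.2%, 85.8% and 47.5% of the wildtype mean, and without mutant library D 3 were higher and 4 lower. Notochord genes were higher in 2 of 4, and in 1 without mutant library D, and eye genes were higher in 2 and lower in 2 of 6. Genes transcribed mostly at earlier stages were higher in 7 of 9 and lower in 0, with sums of 112 to 125 CPM in wildtype and 169 to 198 CPM in the mutants. Genes of later stages gave 3 higher and 3 lower of 13, with a median of -0.24 and sums of 779 to 912 CPM in wildtype and 519 to 756 CPM in the mutants. Some lists share genes, so their counts are not independent. *vent* and *vox* count as higher both among the earlier genes and among the tail bud genes. *pax2a* (log2 fold change -0.21, adjusted p = 0.0176, edgeR's quasi-likelihood test) counts as lower both among the regional hindbrain genes and among the pronephros and endoderm genes. Of the 3 higher later genes, *hbbe1_1* and *hbae1* are also in the blood list, and the remaining one was *alas2* (log2 fold change 0.50). Of the lower later genes, *mylpfa* is also in the muscle list, *acta1b* is likewise a muscle gene, and *snap25a* (-0.29) is a neuronal gene. The later list also holds the muscle genes *ckma*, *myhz2*, *mylz3* and *tnnt3a*, with log2 fold changes of -0.49, -0.52, -0.34 and 0.51 that did not pass. The later sum stood at 89.6%, 89.0% and 61.5% of the wildtype mean in mutant libraries A, C and D, and it is not separate from the muscle genes.

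As a description of the pattern across the 6 libraries, genes averaging 5 CPM or more were ranked by how closely their log2 CPM followed that of each of the 6. For *egr2b* these were *smad2* (Pearson r of 0.998), *TOX4* (0.997) and *cog5* (0.995), and for *egr2a* they were *MIPEP* (0.999), *dnajc5ga* (0.999) and *SHROOM2* (0.998). *cdx4* was followed by *col18a1* (0.998), *osbpl10* (0.997) and *itm2cb* (0.997), and *cdx1a* by *amotl2b* (0.998), *mark2a* (0.990) and *tmprss4a* (0.989). For *mafba* they were *dynlt3* (0.991), *hydin* (0.987) and *si:dkey-1b17_13* (0.972), and for *hnf1ba* *gucd1* (0.992), *tbx2a* (0.992) and *ZNF581* (0.984). Of 12141 genes, 718 had an r over 0.95 with *egr2a*, 588 with *cdx4* and 421 with *egr2b*, but 29 with *hnf1ba* and 15 with *mafba*, and of 12142 genes 89 had it with *cdx1a*. All these points share the 6 libraries and their genotypes, and a difference between genotypes by itself contributes to r.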

How the data were processed

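Strand-specific mRNA libraries from pooled embryos, 3 wildtype and 3 *dusp2/dusp6* double mutant, were analysed. The authors aligned reads with RSEM 1.2.28 (submitters' notes) to the DanRer7 transcriptome and deposited the raw expected counts, estimates that can be fractional, for each gene. Their own DESeq2 comparison (fold change, log2 fold change and adjusted p) was not used. Columns carry a genotype and a letter and were assigned to a genotype, not to a numbered replicate. Libraries of one genotype differed by more than sampling noise. This does not show whether they came from separate pools, and each was treated as a replicate.

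Expected counts were rounded, filtered with filterByExpr, scaled by TMM and compared with edgeR 4.0.16 (glmQLFit, glmQLFTest) in R 4.3.3, with Benjamini-Hochberg adjustment and a threshold of 0.05. The SE is the size of the log2 fold change over the square root of F. CPM are scaled by TMM. The counting variance was taken from the summed counts of the tested genes in each library, without TMM. Ratios within libraries used a pseudocount of 0.5 count. Alternatives were DESeq2's size factors, upper-quartile scaling, DESeq2 1.42.0, limma 3.58.1 (voom), no filter, CPM over 1 in at least 3 libraries, and leaving out each library. The fit was tested on simulated data.

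The 6 genes and the lists were chosen with earlier results of these data known. Besides the 6, text names were taken from each list (the 4 called genes with the largest change, or the next largest where fewer were called), from the genes with the highest r, and *dusp6* and *dusp2*. Named outside this rule, after their values were seen, are *sall4*, *fgf3*, *hnf1bb*, *cdx1b*, *phox2a*, *phox2bb*, *epha4b*, *epha4l*, *hoxb1a*, *hoxa2b*, *hoxb2a*, *hoxb3a*, *pax2a*, *vox*, *hbae1*, *snap25a*, *ckma*, *myhz2*, *mylz3*, *tnnt3a*, *actc1b*, *tp63* and *epcam*. List symbols were matched for 184 of 191 genes, 14 of them by an alternative name, with a RefSeq table of assembly GRCz12tu that served for names only.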

Additional observations from a re-analysis of the deposited data

How the results depend on the processing

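The directions of the 6 genes held in all 12 alternatives run for each. Over these the log2 fold change was -0.54 to -0.47 for *egr2a*, 0.26 to 0.36 for *egr2b* and 0.26 to 0.41 for *cdx4*, all past the threshold. On leaving out each library, *cdx1a* ranged from 0.62 to 1.14 and 4 of the 6 libraries ended its call, so that 2 genes in place of 3 were then higher. Each of those fits held fewer samples, and the cause was not tested further. The count of all genes with a 2-fold change fell from 992 to 552 when CPM over 1 in at least 3 libraries was required, a filter that tests fewer genes, and ranged from 881 to 1039 on leaving out each library. Levels of the 6 genes over a list sum were measures added after seeing the data, with p-values that were not adjusted. Of these, *cdx4* over the tail bud sum (-0.15) and over that sum without *sall4* (-0.041) turned its direction, since they measure it relative to other genes that rose. The other genes kept their direction. For 86 other genes picked by the naming rule, 964 of 1029 alternative values kept direction and call, 59 lost the call, 6 gained it and 0 changed sign. Not all of these 86 appear in the text, and the genes named outside the rule are not among them. One gene of hindbrain neurons was lower under the CPM filter, against 0. No paired analysis was possible because the columns carry letters in place of the replicate numbers of the labels, and no source ties a letter to a batch that the genotypes share. Counts of *cdx1a* between 43 and 124 per library limit what can be said of it.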
